A study of Homo sapiens with 18 samples.

Results

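The genes described here are 39 genes of ribosome biogenesis, chosen by name as nucleolar, RNA polymerase I and pre-ribosome assembly factors from the 57500 genes of the deposited table. All 39 were found once under their names, and all are protein-coding genes, spread over 18 chromosomes in GENCODE release 29 (GRCh38). Poly-A RNA was sequenced from 3 established lines of human non-small cell lung cancer, named SNU2535, NCI-H3122 and NCI-H2228, for which the labels give the genotype WT. Cells of each line were grown in dishes and received either 3 µM TRI-611 for 3 h or DMSO, the solvent control, for the same time. TRI-611 is, per the series title, a molecular glue degrader, a small molecule that brings a protein to a ubiquitin ligase for destruction, and its target is the receptor tyrosine kinase ALK. Each of the 6 groups held 3 libraries, numbered by a batch from 1 to 3, and each line is a single culture line with 1 dose and 1 time.

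Ribosome assembly begins in the nucleolus, where RNA polymerase I transcribes the genes for the long precursor of ribosomal RNA. Small nucleolar ribonucleoproteins (snoRNPs) guide the chemical modification of that precursor, while the small subunit processome and a succession of further factors fold it, cut it and load it with ribosomal proteins on the way to the small (40S) and large (60S) subunits. Growing tumour cells make many ribosomes, and transcription of these genes is known to follow growth factor signalling and the transcription factor MYC. The libraries hold poly-A RNA, so the values concern the messenger RNAs of the assembly factors and not ribosomal RNA or ribosomes.

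Values are TPM, a measure of transcript abundance corrected for gene length, in which the sum over all genes is fixed at 1000000 in every library, so a value is a share of the messenger RNA pool and depth is unknown. All 39 members passed the filter in every line, with a lowest single value of 6.28 TPM. Replicate libraries correlated across genes at r = 0.990 to 0.993 on the log2(TPM + 1) scale. All 7 epithelial markers were at 1 TPM or more in each line, with summed levels of 2356 to 8240 TPM, lowest in NCI-H2228 (2356 to 2773 TPM). CDH1 averaged 6.19 TPM with TRI-611 and 5.65 TPM with DMSO in NCI-H2228. It averaged 196 and 167 TPM in NCI-H3122, and 646 and 567 TPM in SNU2535. The 6 immune markers summed to 3.64 to 46.2 TPM, highest in SNU2535 through CD79A, and the 5 endothelial markers to 2.31 to 14.7 TPM. The 6 fibroblast markers summed to 137 to 393 TPM, mostly COL1A1 in SNU2535 and NCI-H2228 and LUM in NCI-H3122, and 1 of the 6 was at 0 in all libraries of each line. Mitochondrially encoded genes took 9.13%, 12.6% and 10.8% of TPM on average with TRI-611, against 8.70%, 11.1% and 9.07% with DMSO, in SNU2535, NCI-H3122 and NCI-H2228. With those genes taken out and TPM rescaled, the counts of members called lower were 36, 31 and 28 in these lines. Of all tested genes, 17.3%, 13.2% and 5.30% were then called lower and 10.9%, 24.4% and 6.78% higher.

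After 3 h of TRI-611, most of the 39 genes were lower in all 3 lines and none was called higher in any of them. In SNU2535, 36 of 39 members fell and 0 were called higher, where 18.1% of all 16252 tested genes were called lower and 10.7% higher, and the member median was -0.49 on the log2 scale, against -0.02 over all tested genes. In NCI-H3122, 29 of 39 fell and 0 were called higher, against 13.4% lower and 20.6% higher of 15311 tested genes, with a member median of -0.36 beside 0.05 over all. Median-ratio scaling, in place of the fixed TPM sum, called 37 members lower in NCI-H3122, against 20.7% lower and 16.4% higher of all tested genes. In NCI-H2228, 31 of 39 fell and 0 were called higher, against 6.40% lower and 4.80% higher of 16806 tested genes, with a member median of -0.32 beside 0.01 over all. There, plain empirical Bayes called 22 members lower and a fit with no filter on low values 23, where 3.7% and 1.94% of all tested genes were lower. Library values are given in the order of replicates 1, 2 and 3. A call is an adjusted p under 0.05 in limma (Benjamini-Hochberg over all tested genes), and fold changes are differences of log2(TPM + 1), which understate the change of genes of low TPM. In bulk RNA, fewer cells of a kind and less RNA per cell cannot be told apart.

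A total of 26 members (66.7%) fell in all 3 lines, while 625 of the 13186 genes tested in every line (4.74%, members included) did so. Of the others, 7 fell in 2 lines, 4 fell in 1 line, and UTP20 and DDX10 were called in none. Among the 26, NOB1, BOP1, NOP58, NOLC1, PPAN and NCL lost a call in NCI-H3122 or NCI-H2228 in some alternative analyses. The libraries of both treatments did not overlap, with TRI-611 lower, for 37 members in SNU2535, 35 in NCI-H3122 and 34 in NCI-H2228, where 25.8%, 18.6% and 16.2% of all tested genes showed that pattern. The log2 differences of the members ran from -1.78 to -0.02 in SNU2535, from -0.82 to 0.12 in NCI-H3122 and from -0.94 to 0.0045 in NCI-H2228. The log2 difference was lowest in SNU2535 for 36 members, in NCI-H3122 for NCL and FBL and in NCI-H2228 for NPM1. NCL was nearly equal in SNU2535 (-0.267) and NCI-H3122 (-0.272). The like share of all genes was not computed. Over all tested genes, the median difference in response was -0.09 for SNU2535 minus NCI-H3122 and -0.04 for SNU2535 minus NCI-H2228. Within the batches, comparing the TRI-611 library with its DMSO partner, SNU2535 had member medians of -0.53 (batch 1), -0.47 (batch 2) and -0.56 (batch 3). NCI-H3122 had -0.38, -0.25 and -0.36, and NCI-H2228 had -0.32, -0.27 and -0.31, in the same order of batches.

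**Figure D1:**
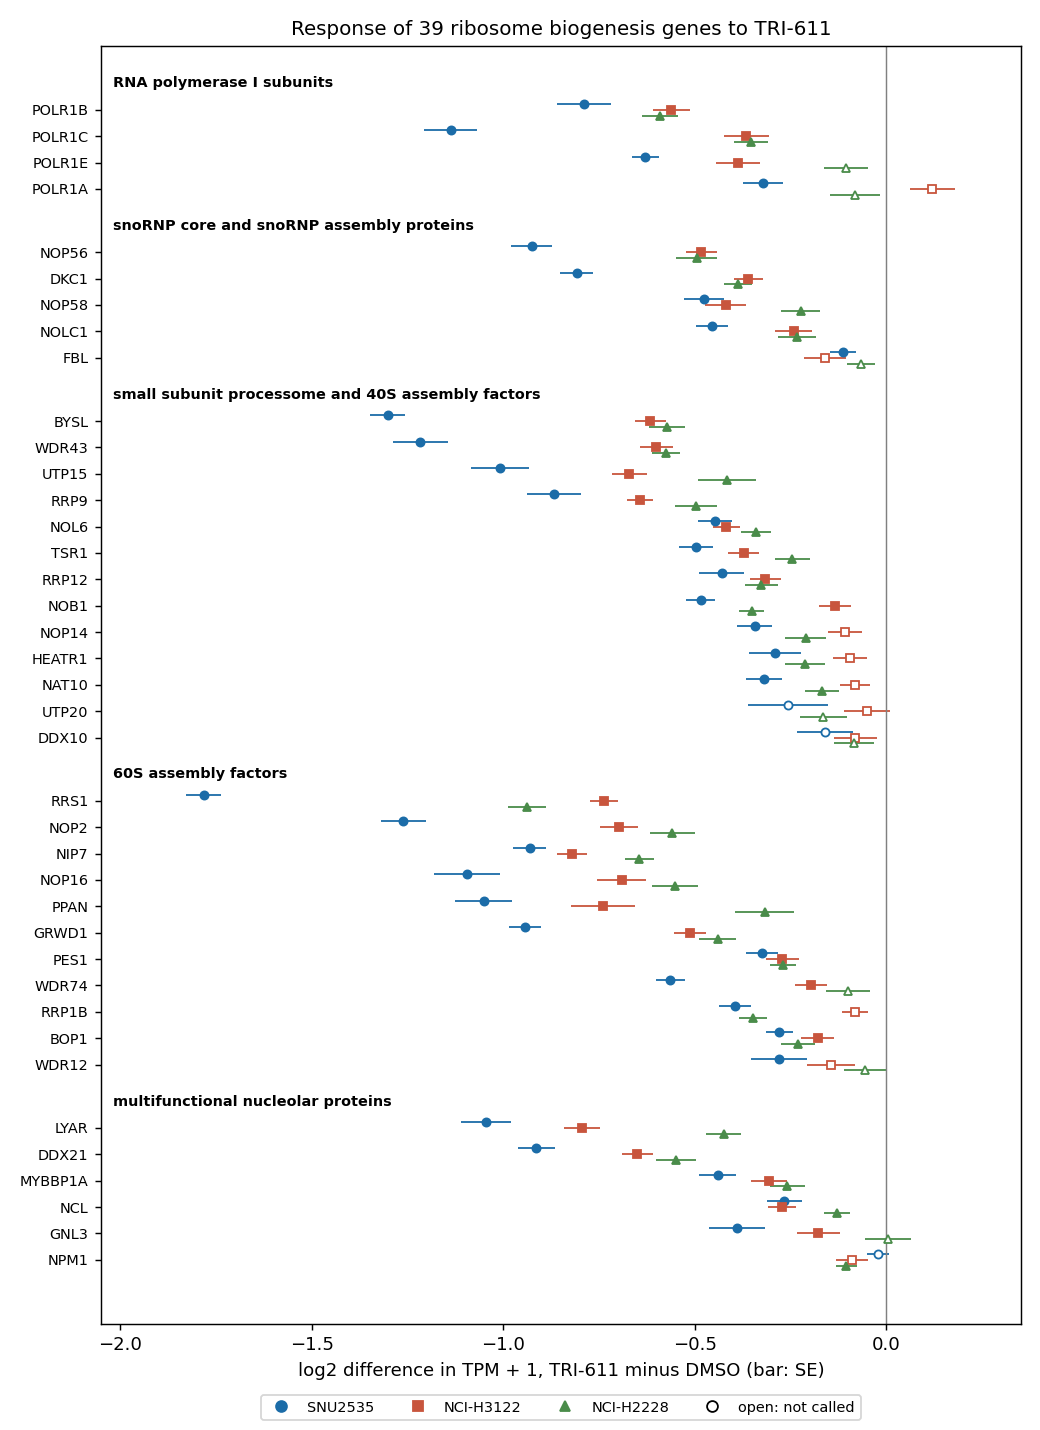
Log2 difference in TPM + 1, TRI-611 minus DMSO, for the 39 members by role (points, with limma's standard error as bars, 3 libraries a group; filled points are called at an adjusted p under 0.05). Nearly all points lie left of 0, the farthest being RRS1 in SNU2535 at -1.78. POLR1A in NCI-H3122 and GNL3 in NCI-H2228 lie right of 0 and are not called.

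Taken as a share of all messenger RNA, the members' summed level was 3347 ± 109 TPM with TRI-611 and 4484 ± 33.5 TPM with DMSO in SNU2535 (SD, n = 3 each), a difference of -25.3%. In NCI-H3122 the sum was 6045 ± 180 TPM with TRI-611 and 7433 ± 185 TPM with DMSO (SD, n = 3 each), a difference of -18.7%. In NCI-H2228 it was 4755 ± 35.2 TPM with TRI-611 and 5677 ± 62.6 TPM with DMSO (SD, n = 3 each), a difference of -16.2%. The nucleolar proteins NPM1 and NCL alone made up 33.6% to 36.3% of the sum with DMSO. Without them the differences were -34.7%, -22.7% and -21.2%.

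Promoter sequences of members with large falls are shown because the CACGTG motif (an E-box, the core site bound by MYC and related factors) has a known place in promoters of ribosome biogenesis genes. In the RefSeq table of promoter windows (GRCh38.p14, 250 bases before to 50 after each listed start), 32 of 39 members had an entry, 7 of them with 2 windows. CACGTG, a palindrome that reads the same on both strands, was in a window of 14 of the 32 members (43.8%), of 33 of 108 other genes of the pathway (30.6%), of 1378 of 11095 tested genes (12.4%), and of 2396 of all 27305 genes with an entry (8.77%). CCGGAAG, an ETS-type motif sought on both strands, was in a window of 11 members (34.4%), against 49.1% of the other pathway genes, 21.1% of tested genes and 12.2% of all. The members that hold CACGTG include NOP2, BYSL, WDR43 and LYAR, printed here 5′ to 3′ along the gene's strand with the motif in capitals, followed by NIP7, a member with a large fall and no CACGTG in its window.
NOP2: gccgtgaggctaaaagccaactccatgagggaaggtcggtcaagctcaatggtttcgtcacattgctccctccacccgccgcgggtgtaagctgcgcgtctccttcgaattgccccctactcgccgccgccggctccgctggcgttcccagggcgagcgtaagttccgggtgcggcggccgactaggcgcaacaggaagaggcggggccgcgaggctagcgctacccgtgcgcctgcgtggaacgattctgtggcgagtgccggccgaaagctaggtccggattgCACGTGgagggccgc
BYSL: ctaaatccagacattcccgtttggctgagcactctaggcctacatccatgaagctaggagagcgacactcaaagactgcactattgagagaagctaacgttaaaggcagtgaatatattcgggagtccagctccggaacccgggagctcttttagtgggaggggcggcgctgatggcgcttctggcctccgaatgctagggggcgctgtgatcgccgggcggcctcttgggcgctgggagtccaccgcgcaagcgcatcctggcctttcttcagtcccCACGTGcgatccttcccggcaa
WDR43: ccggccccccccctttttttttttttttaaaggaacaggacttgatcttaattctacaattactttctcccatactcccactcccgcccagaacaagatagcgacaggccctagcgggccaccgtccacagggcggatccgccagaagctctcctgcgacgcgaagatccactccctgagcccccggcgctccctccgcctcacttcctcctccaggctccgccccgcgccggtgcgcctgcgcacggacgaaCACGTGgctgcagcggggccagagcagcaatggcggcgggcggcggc
LYAR: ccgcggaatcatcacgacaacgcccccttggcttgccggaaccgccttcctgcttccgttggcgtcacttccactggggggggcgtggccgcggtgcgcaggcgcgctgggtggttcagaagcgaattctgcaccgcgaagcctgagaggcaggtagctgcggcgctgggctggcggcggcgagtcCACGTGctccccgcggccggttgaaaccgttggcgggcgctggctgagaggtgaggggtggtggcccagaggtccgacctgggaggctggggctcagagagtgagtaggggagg
NIP7: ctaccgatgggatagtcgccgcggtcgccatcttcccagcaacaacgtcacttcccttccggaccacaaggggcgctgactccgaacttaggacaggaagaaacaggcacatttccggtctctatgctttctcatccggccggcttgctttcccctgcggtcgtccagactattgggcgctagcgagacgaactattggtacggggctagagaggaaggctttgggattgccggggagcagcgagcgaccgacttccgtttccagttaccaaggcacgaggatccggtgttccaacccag

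The windows lie at chr12:6568242-6568541, minus strand (NOP2), chr6:41921249-41921548, plus strand (BYSL), chr2:28894417-28894716, plus strand (WDR43), chr4:4289972-4290271, minus strand (LYAR, the one of its 2 windows with the motif) and chr16:69339522-69339821, plus strand (NIP7). The motif starts 35, 28 and 3 bases after the listed start in NOP2, BYSL and WDR43, and 64 bases before it in LYAR. The responses of members with and without CACGTG overlapped widely. With it, 13 (SNU2535), 10 (NCI-H3122) and 11 (NCI-H2228) of 14 fell. Without it, 16, 13 and 14 of 18 fell. Median changes were -0.44, -0.36 and -0.30 with the motif, and -0.68, -0.36 and -0.33 without it, in the same order of lines. A match describes the letters in this window and shows neither binding nor a cause.

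Among the RNA polymerase I subunits, 4 of 4 fell in SNU2535, 3 in NCI-H3122 and 2 in NCI-H2228. POLR1B, the second-largest subunit and part of the catalytic core (ENSG00000125630, chromosome 2, 112541915 to 112577150, plus strand), had 9.58, 9.90 and 8.84 TPM with TRI-611, against 16.3, 16.4 and 18.4 TPM with DMSO in SNU2535 (log2 difference -0.79, SE 0.071, adjusted p = 1.65e-04). POLR1B had 29.2, 31.9 and 31.9 TPM with TRI-611, against 45.6, 45.9 and 47.0 TPM with DMSO in NCI-H3122 (-0.56, SE 0.048, adjusted p = 1.12e-04). POLR1B had 24.6, 23.9 and 23.7 TPM with TRI-611, against 38.0, 35.7 and 36.6 TPM with DMSO in NCI-H2228 (-0.59, SE 0.047, adjusted p = 1.58e-04). Every TRI-611 library lay below every DMSO library of its line for POLR1B, and the fall had a like size in NCI-H3122 and NCI-H2228.

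POLR1A, the largest subunit, which carries the active site together with POLR1B (ENSG00000068654, chromosome 2, 86020216 to 86106155, minus strand), had 20.3, 21.9 and 21.0 TPM with TRI-611, against 25.4, 27.0 and 27.4 TPM with DMSO in SNU2535 (-0.32, SE 0.051, adjusted p = 0.00268). The groups did not overlap there. POLR1A had 65.4, 66.0 and 74.4 TPM with TRI-611, against 65.5, 60.2 and 63.3 TPM with DMSO in NCI-H3122 (0.12, SE 0.059, adjusted p = 0.163), while NCI-H2228 had 31.3, 33.9 and 36.1 TPM with TRI-611, against 35.8, 33.7 and 38.0 TPM with DMSO (-0.08, SE 0.066, adjusted p = 0.49). The groups of POLR1A overlapped in both of these lines, where POLR1B was called; the difference between these genes was not tested.

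POLR1C, a subunit shared by RNA polymerases I and III (ENSG00000171453, chromosome 6, 43509702 to 43562419, plus strand), had 11.1, 13.4 and 11.8 TPM with TRI-611, against 27.5, 27.7 and 28.0 TPM with DMSO in SNU2535 (-1.14, SE 0.069, adjusted p = 2.61e-05). POLR1C had 39.7, 37.8 and 36.8 TPM with TRI-611, against 53.2, 46.5 and 48.6 TPM with DMSO in NCI-H3122 (-0.37, SE 0.058, adjusted p = 0.00228). POLR1C had 39.5, 42.5 and 39.96 TPM with TRI-611, against 51.7, 53.3 and 51.7 TPM with DMSO in NCI-H2228 (-0.35, SE 0.045, adjusted p = 0.00179). The libraries of both treatments stood apart in all 3 lines. POLR1E, a further subunit of the enzyme, was at -0.63, -0.39 and -0.11 in SNU2535, NCI-H3122 and NCI-H2228, called in SNU2535 and NCI-H3122 and not in NCI-H2228.

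Of the snoRNP proteins, 5 of 5 fell in SNU2535 and 4 of 5 in each of NCI-H3122 and NCI-H2228, FBL being the one not called. NOP56, a scaffold protein of the box C/D particles that guide ribose methylation, changed by -0.93, -0.48 and -0.50 in SNU2535, NCI-H3122 and NCI-H2228. Its partner scaffold NOP58 changed by -0.48, -0.42 and -0.22, and DKC1, the pseudouridine synthase of the box H/ACA particles, by -0.81, -0.36 and -0.39, in the same order of lines. NOLC1, a phosphoprotein that accompanies snoRNPs, changed by -0.46, -0.24 and -0.23. All of these were called in every line.

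FBL, fibrillarin, is the methyltransferase of the box C/D particles (ENSG00000105202, chromosome 19, 39834458 to 39846414, minus strand). It had 347, 346 and 353 TPM with TRI-611, against 375, 393 and 365 TPM with DMSO in SNU2535 (-0.11, SE 0.034, adjusted p = 0.0421). FBL had 620.2, 600.0 and 538 TPM with TRI-611, against 670.5, 641 and 649.5 TPM with DMSO in NCI-H3122 (-0.16, SE 0.054, adjusted p = 0.0537), while NCI-H2228 had 373, 400.2 and 373 TPM with TRI-611, against 404, 398 and 397 TPM with DMSO (-0.07, SE 0.036, adjusted p = 0.292). The groups did not overlap in SNU2535 and NCI-H3122 and overlapped in NCI-H2228. The call in SNU2535 was lost in 10 of the 16 alternative analyses of that line. In NCI-H3122, where FBL was not called, 7 of 16 alternatives called it lower.

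The small subunit processome and 40S assembly factors fell in 11 of 13 cases in SNU2535 (median -0.45), 8 of 13 in NCI-H3122 (median -0.32) and 11 of 13 in NCI-H2228 (median -0.33). BYSL, bystin, which acts in late assembly of the small subunit (ENSG00000112578, chromosome 6, 41921188 to 41933046, plus strand), had 19.9, 20.03 and 18.8 TPM with TRI-611, against 51.0, 49.2 and 48.9 TPM with DMSO in SNU2535 (-1.30, SE 0.045, adjusted p = 2.00e-06). BYSL had 54.5, 53.8 and 51.0 TPM with TRI-611, against 82.9, 80.3 and 82.4 TPM with DMSO in NCI-H3122 (-0.62, SE 0.040, adjusted p = 3.07e-05). BYSL had 64.3, 66.0 and 61.1 TPM with TRI-611, against 95.8, 99.2 and 91.3 TPM with DMSO in NCI-H2228 (-0.57, SE 0.047, adjusted p = 1.98e-04). TRI-611 libraries of BYSL lay below all DMSO libraries in each line, by the widest margin in SNU2535.

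WDR43, a processome protein of the complex that joins transcription of the rRNA precursor to its processing (ENSG00000163811, chromosome 2, 28894643 to 28948222, plus strand), had 35.9, 44.5 and 39.1 TPM with TRI-611, against 95.0, 91.3 and 94.1 TPM with DMSO in SNU2535 (-1.22, SE 0.072, adjusted p = 2.39e-05). WDR43 had 203, 215 and 203 TPM with TRI-611, against 329, 315 and 299.8 TPM with DMSO in NCI-H3122 (-0.60, SE 0.044, adjusted p = 5.06e-05). WDR43 had 59.9, 59.2 and 60.9 TPM with TRI-611, against 90.04, 87.6 and 92.1 TPM with DMSO in NCI-H2228 (-0.58, SE 0.038, adjusted p = 6.19e-05). No library of WDR43 crossed from one treatment into the range of the other, and its level in NCI-H3122 stood above that of the other lines under both treatments. UTP15, a partner of WDR43 in that complex, changed by -1.01, -0.67 and -0.42, and RRP9, a protein of the U3 snoRNP, by -0.87, -0.64 and -0.50, called in every line.

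The remaining small subunit factors had smaller differences. NOL6, TSR1, RRP12 and the endonuclease NOB1, which makes the final cut of the small subunit rRNA, fell in all 3 lines, with changes between -0.50 and -0.14. The call of NOB1 in NCI-H3122 was lost in 9 of 16 alternatives. NOP14, HEATR1 and the RNA acetyltransferase NAT10 fell in SNU2535 and NCI-H2228 and were not called in NCI-H3122, where they stood at -0.11, -0.10 and -0.08. Their calls in NCI-H2228 were lost in 9, 8 and 11 of 16 alternatives, and each was called lower in NCI-H3122 in some. UTP20, a very large protein of the processome, had 6.64, 8.68 and 7.29 TPM with TRI-611, against 8.91, 8.52 and 10.1 TPM with DMSO in SNU2535 (-0.26, SE 0.11, adjusted p = 0.112). The groups overlapped there, with the TRI-611 library of batch 2 above the lowest DMSO library, and without that TRI-611 library UTP20 was called lower (-0.35). The helicase DDX10 was at -0.16, -0.08 and -0.08 in SNU2535, NCI-H3122 and NCI-H2228, without overlap of the groups in any line and without a call.

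The 60S assembly factors held the largest fall of each line, with 11 of 11 called in SNU2535 (median -0.93) and 9 of 11 in each of NCI-H3122 (median -0.51) and NCI-H2228 (median -0.35). RRS1, which brings the 5S ribonucleoprotein into the large subunit (ENSG00000179041, chromosome 8, 66429028 to 66430733, plus strand), had 58.0, 63.9 and 61.7 TPM with TRI-611, against 205, 214 and 219.8 TPM with DMSO in SNU2535 (-1.78, SE 0.046, adjusted p = 7.56e-07). RRS1 had 120.3, 126 and 120.3 TPM with TRI-611, against 209.6, 202 and 202 TPM with DMSO in NCI-H3122 (-0.74, SE 0.036, adjusted p = 8.10e-06). RRS1 had 88.2, 96.4 and 85.1 TPM with TRI-611, against 174, 170.2 and 175 TPM with DMSO in NCI-H2228 (-0.94, SE 0.049, adjusted p = 1.96e-05). The DMSO levels of RRS1 in SNU2535 and NCI-H3122 were close to each other, while the TRI-611 libraries of SNU2535 were all below those of NCI-H3122 and NCI-H2228.

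NOP2, a methyltransferase of large subunit rRNA (ENSG00000111641, chromosome 12, 6556863 to 6568691, minus strand), had 29.7, 33.8 and 30.2 TPM with TRI-611, against 72.6, 79.2 and 76.6 TPM with DMSO in SNU2535 (-1.26, SE 0.059, adjusted p = 7.90e-06). NOP2 had 71.2, 74.3 and 68.9 TPM with TRI-611, against 121, 109.9 and 119 TPM with DMSO in NCI-H3122 (-0.70, SE 0.049, adjusted p = 4.42e-05). NOP2 had 67.1, 73.3 and 63.6 TPM with TRI-611, against 95.3, 101 and 105 TPM with DMSO in NCI-H2228 (-0.56, SE 0.060, adjusted p = 8.03e-04). The groups of NOP2 did not overlap in any line. In GENCODE release 29, 54.4% of the exon bases of NOP2 are shared with AC006064.6 on the same strand. The level of NOP2 may depend on how reads in shared exons were assigned, though the deposited values hold no level for AC006064.6.

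NIP7, a small RNA-binding factor of large subunit assembly (ENSG00000132603, chromosome 16, 69337996 to 69343111, plus strand), had 54.0, 57.8 and 53.2 TPM with TRI-611, against 108, 105 and 104 TPM with DMSO in SNU2535 (-0.93, SE 0.042, adjusted p = 6.73e-06). NIP7 had 45.7, 48.0 and 47.5 TPM with TRI-611, against 84.5, 85.7 and 81.6 TPM with DMSO in NCI-H3122 (-0.82, SE 0.039, adjusted p = 7.59e-06), the largest fall of a member in that line. NIP7 had 91.3, 97.7 and 93.2 TPM with TRI-611, against 150.0, 146 and 147 TPM with DMSO in NCI-H2228 (-0.65, SE 0.038, adjusted p = 3.37e-05). TRI-611 libraries were again below all DMSO libraries in each line, and the falls of NIP7 were closer to each other across lines than those of RRS1. COG8, on the opposite strand, overlaps 20.2% of its exon bases, and with the strand setting not given in the sources used here, reads there cannot be assigned.

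PPAN, peter pan homolog, a large subunit assembly factor (ENSG00000130810, chromosome 19, 10106289 to 10111634, plus strand), had 11.2, 11.3 and 13.0 TPM with TRI-611, against 26.8, 26.2 and 23.7 TPM with DMSO in SNU2535 (-1.05, SE 0.074, adjusted p = 5.16e-05). PPAN had 14.9, 16.4 and 13.8 TPM with TRI-611, against 28.0, 23.5 and 25.8 TPM with DMSO in NCI-H3122 (-0.74, SE 0.083, adjusted p = 4.16e-04). PPAN had 19.7, 19.4 and 17.7 TPM with TRI-611, against 22.1, 23.1 and 26.5 TPM with DMSO in NCI-H2228 (-0.32, SE 0.077, adjusted p = 0.0338). The groups stood apart in each line, most narrowly in NCI-H2228, where the call was lost in 8 of 16 alternatives. The readthrough gene PPAN-P2RY11 covers 56.0% of the exon bases of PPAN on the same strand, so the level of PPAN is uncertain.

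NOP16 and GRWD1, 2 further large subunit factors, changed by -1.10, -0.69 and -0.55 and by -0.94, -0.51 and -0.44 in SNU2535, NCI-H3122 and NCI-H2228, called in every line. PES1, BOP1 and WDR12 form the PeBoW complex, which is needed for large subunit rRNA processing. PES1 changed by -0.33, -0.27 and -0.27 and BOP1 by -0.28, -0.18 and -0.23, called in every line, while WDR12, at -0.28, -0.14 and -0.05, was called in SNU2535 alone, a call lost in 5 of 16 alternatives. WDR74 fell in SNU2535 (-0.56) and NCI-H3122 (-0.20) and RRP1B in SNU2535 (-0.40) and NCI-H2228 (-0.35).

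**Figure D2:**
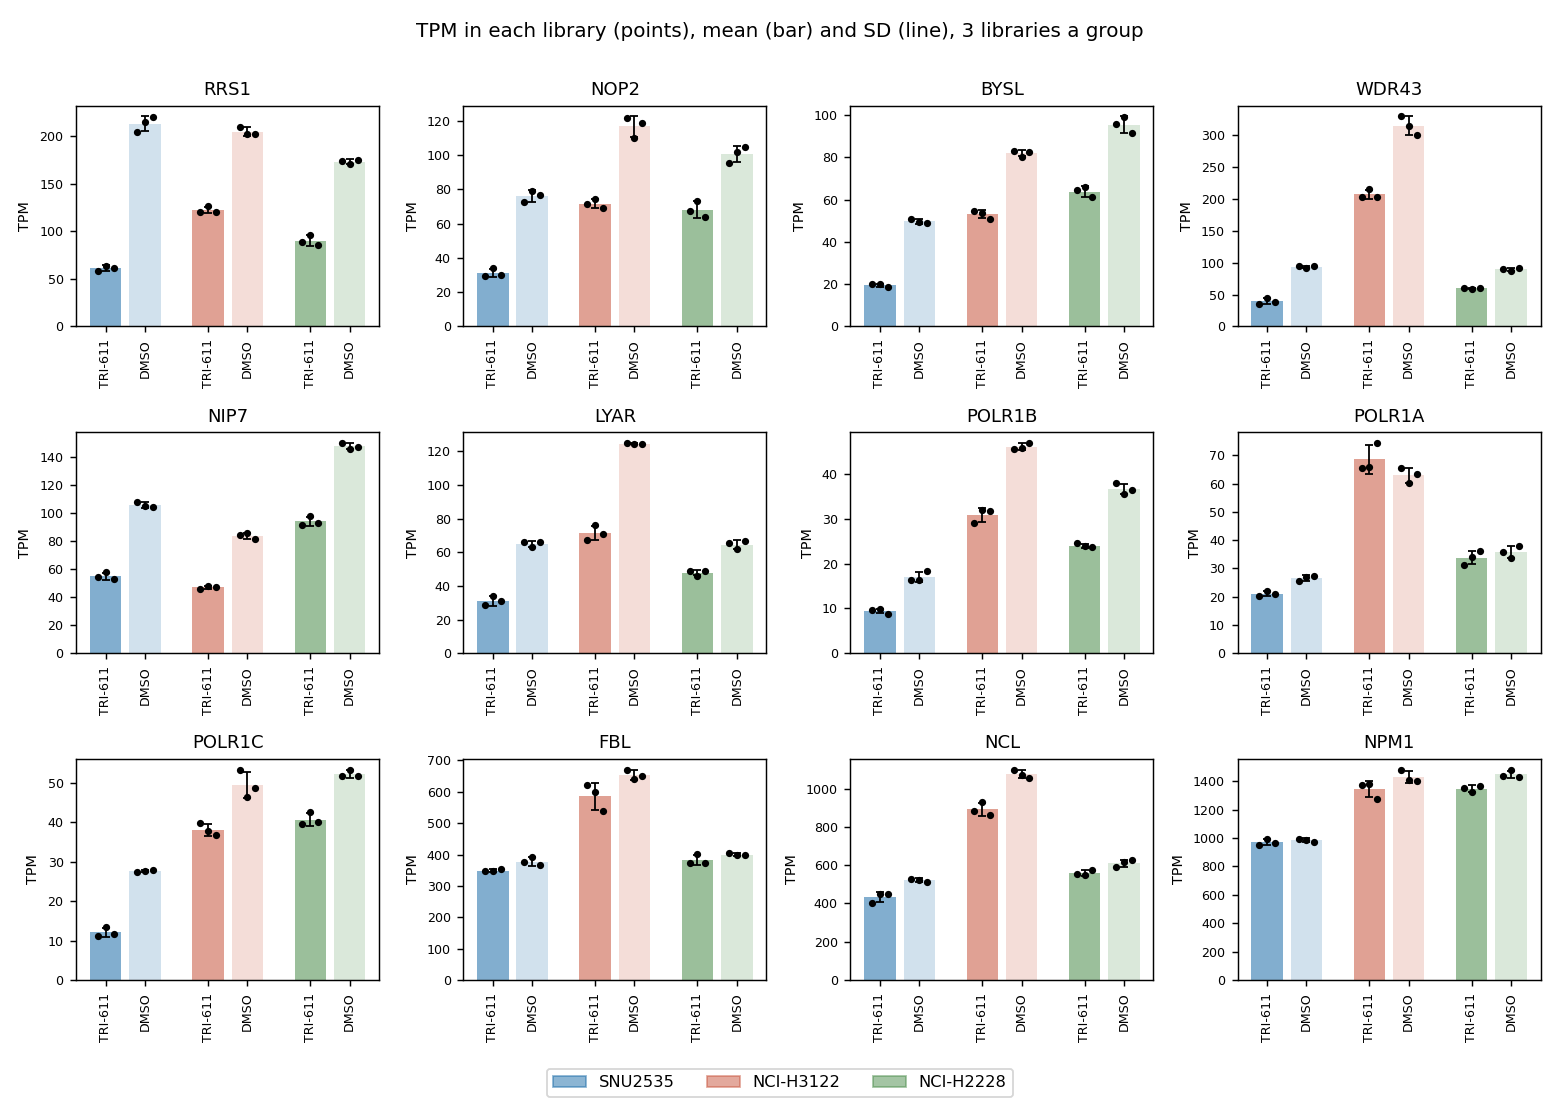
TPM of 12 members in each library (points) with the mean (bars) and SD (lines) of 3 libraries, TRI-611 left of DMSO in each line. RRS1, NOP2, BYSL, WDR43, NIP7, LYAR, POLR1B and POLR1C are lower with TRI-611 in all lines, while NPM1 and FBL differ little and POLR1A overlaps in NCI-H3122 and NCI-H2228.

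Among the multifunctional nucleolar proteins, 5 of 6 fell in each line. LYAR, a zinc finger protein of the nucleolus that also binds DNA (ENSG00000145220, chromosome 4, 4267701 to 4290169, minus strand), had 28.3, 34.0 and 30.8 TPM with TRI-611, against 66.0, 63.0 and 66.0 TPM with DMSO in SNU2535 (-1.04, SE 0.065, adjusted p = 2.95e-05). LYAR had 67.5, 76.0 and 70.7 TPM with TRI-611, against 125, 125 and 124 TPM with DMSO in NCI-H3122 (-0.79, SE 0.047, adjusted p = 1.97e-05). LYAR had 48.6, 46.1 and 48.8 TPM with TRI-611, against 65.4, 61.8 and 66.6 TPM with DMSO in NCI-H2228 (-0.42, SE 0.046, adjusted p = 8.31e-04). The groups were separate in each line, and the fall was smallest in NCI-H2228. DDX21, a helicase that links rDNA transcription with rRNA processing, changed by -0.91, -0.65 and -0.55 in SNU2535, NCI-H3122 and NCI-H2228. MYBBP1A, a repressor of rDNA transcription, changed by -0.44, -0.31 and -0.26, in the same order, and both were called in every line. The GTPase GNL3, nucleostemin, changed by -0.39 and -0.18 in SNU2535 and NCI-H3122, both called, and stood at 0.0045 in NCI-H2228, not called. Its call in NCI-H3122 was lost in 9 of 16 alternatives.

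The 2 most abundant members had small changes. NCL, nucleolin, an RNA-binding protein of the nucleolus (ENSG00000115053, chromosome 2, 231453531 to 231483641, minus strand), had 404, 451 and 448 TPM with TRI-611, against 530.4, 524 and 513 TPM with DMSO in SNU2535 (-0.27, SE 0.046, adjusted p = 0.00372). NCL had 883, 930.0 and 862 TPM with TRI-611, against 1099.6, 1072 and 1058 TPM with DMSO in NCI-H3122 (-0.27, SE 0.037, adjusted p = 0.00105). NCL had 553, 548 and 574 TPM with TRI-611, against 590.3, 616 and 625 TPM with DMSO in NCI-H2228 (-0.13, SE 0.034, adjusted p = 0.0471). NCL was lower without overlap in every line, but its call in NCI-H2228 was lost in 10 of 16 alternatives.

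NPM1, nucleophosmin, a histone chaperone of the nucleolus (ENSG00000181163, chromosome 5, 171387116 to 171411137, plus strand), had 952, 993 and 965 TPM with TRI-611, against 996, 988 and 971 TPM with DMSO in SNU2535 (-0.02, SE 0.028, adjusted p = 0.616). NPM1 had 1375, 1384 and 1279 TPM with TRI-611, against 1482, 1409 and 1403 TPM with DMSO in NCI-H3122 (-0.09, SE 0.041, adjusted p = 0.136). NPM1 had 1354, 1324 and 1370.3 TPM with TRI-611, against 1439, 1480.3 and 1433 TPM with DMSO in NCI-H2228 (-0.10, SE 0.028, adjusted p = 0.047). The groups of NPM1 overlapped in SNU2535 and did not in NCI-H3122 and NCI-H2228, and its call in NCI-H2228 was lost in 13 of 16 alternatives. The table also lists 45 NPM1 pseudogenes, which sum to 90.6 TPM on average beside 1255 TPM for NPM1, so reads of near-identical copies may be split between them.

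Outside the 39 members, 122 other genes of the pathway were found in the table. They come from a list of 123 chosen by function, with earlier results of these data known. In SNU2535, 86 of 121 tested fell and 0 were called higher (median -0.30). In NCI-H3122, 76 of 121 fell and 3 were called higher (median -0.25), and in NCI-H2228, 47 of 122 fell and 0 were called higher (median -0.16). Set beside the shares of all genes given for each line, 71.1%, 62.8% and 38.5% of these genes fell. URB2, a nucleolar preribosome factor, fell in each line (SNU2535 -1.38, SE 0.076, adjusted p = 1.86e-05, NCI-H3122 -0.83, SE 0.049, adjusted p = 1.84e-05, NCI-H2228 -0.91, SE 0.048, adjusted p = 2.19e-05). The large subunit factor BRIX1 (-1.13, SE 0.046, adjusted p = 4.43e-06) and the small subunit factor LTV1 (-1.07, SE 0.081, adjusted p = 7.13e-05) fell in SNU2535. The RNA polymerase I subunit POLR1G (-0.99, SE 0.045, adjusted p = 5.92e-06) and the nucleolar RNA-binding protein NIFK (-0.73, SE 0.054, adjusted p = 5.81e-05) fell in NCI-H3122. In NCI-H2228, POLR1G (-0.63, SE 0.081, adjusted p = 0.00193) and the small subunit factor PNO1 (-0.58, SE 0.041, adjusted p = 9.84e-05) fell. The 3 called higher in NCI-H3122 were UBTF, the factor that holds rDNA in its active form (0.19, SE 0.061), NOP53 (0.20, SE 0.050) and SPATA5 (0.34, SE 0.096), an ATPase of large subunit maturation, named after their values were seen.

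**Figure D3:**
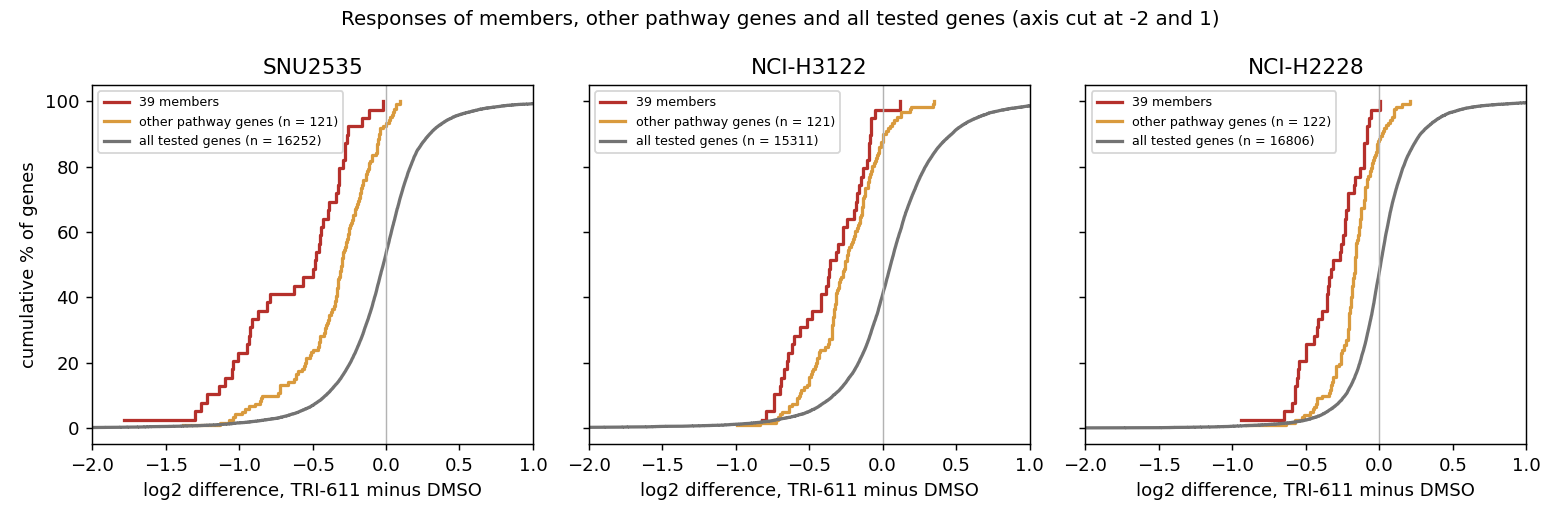
Cumulative percent of genes (vertical) by log2 difference, TRI-611 minus DMSO (horizontal), for the 39 members, the other pathway genes and all tested genes in each line. At the median, the members lie left of the other pathway genes in each line (-0.49 and -0.30 in SNU2535), and both lie left of all tested genes (-0.02 in SNU2535).

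The next comparison asked whether the lines differed in their response, through the difference of the 2 log2 changes itself. SNU2535 and NCI-H3122 differed for 19 members, all with the lower response in SNU2535, where 16.4% of 13788 tested genes were called in that direction, and for 0 in the other direction (3.71% of all). SNU2535 and NCI-H2228 also differed for 19 members, all with the lower response in SNU2535, against 7.83% of 14640 tested genes, and for 0 in the other direction (2.74%). Both comparisons share the libraries of SNU2535. The median difference over members was -0.24 and -0.25, beside -0.09 and -0.04 over all tested genes. Under median-ratio scaling, the first pair had 12 members lower and 1 higher, with a median of -0.10, where 9.01% of all tested genes were lower and 11.4% higher. The second pair had 19 lower and 0 higher, against 5.96% and 4.78%.

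RRS1 showed the largest difference in both pairs, -1.04 against NCI-H3122 (SE 0.059, adjusted p = 3.76e-07) and -0.84 against NCI-H2228 (SE 0.069, adjusted p = 8.74e-06). POLR1C followed, with -0.77, SE 0.092, adjusted p = 1.23e-04 against NCI-H3122 and -0.78, SE 0.082, adjusted p = 6.04e-05 against NCI-H2228. BYSL (-0.69 and -0.73), WDR43 (-0.62 and -0.64) and NOP2 (-0.56 and -0.70) were called in both pairs too. By role, the first pair was called for 3 of 4 polymerase subunits, 3 of 5 snoRNP proteins, 6 of 13 small subunit factors, 6 of 11 large subunit factors and 1 of 6 multifunctional proteins.

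NCI-H3122 and NCI-H2228 differed for 7 members, 4 with the lower response in NCI-H3122 (5.34% of 13878 tested genes) and 3 with the lower response in NCI-H2228 (8.99%). The 4 were PPAN (-0.42, SE 0.12, adjusted p = 0.0305), LYAR (-0.37, SE 0.065, adjusted p = 0.00212), POLR1E (-0.28) and NIP7 (-0.18). The 3 were RRP1B (0.27), NOB1 (0.22) and RRS1 (0.20). The calls of RRS1, NIP7, PPAN and POLR1E were lost in 15, 13, 11 and 11 of 22 alternatives. That of NOB1 was lost in 1, while RRP1B and LYAR kept theirs in all. The count of 4 fell to 1 in a fit with the replicate block, and likewise without NCI-H3122 DMSO replicate 1, NCI-H3122 TRI-611 replicate 1 or 3, or NCI-H2228 DMSO replicate 1. It was 2 without NCI-H3122 DMSO replicate 2 or 3 or NCI-H2228 DMSO replicate 2, and median-ratio scaling gave 9 beside 1 in the other direction, against 8.78% and 6.91% of all tested genes. With a median difference of -0.04 over members beside 0.05 over all genes, the calls took 10.3% and 7.69% of the members in the 2 directions.

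Across the 39 members the sizes of the response in one line followed those in another, with r = 0.85 (rho = 0.86) between SNU2535 and NCI-H3122, r = 0.86 (rho = 0.82) between SNU2535 and NCI-H2228 and r = 0.80 (rho = 0.78) between NCI-H3122 and NCI-H2228. Over all 13186 genes tested in the 3 lines, r was 0.56, 0.51 and 0.51. These are descriptions across genes, which are not independent replicates, and the genes share libraries and a scale within each line.

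The genes with the largest falls also tended to have a short span from first to last base. Over the 39 members, the rank correlation of span with the log2 change was 0.55 (SNU2535), 0.59 (NCI-H3122) and 0.43 (NCI-H2228), so that longer members had smaller differences. The 13 shortest members (1.71 to 12.5 kb) had medians of -0.93, -0.62 and -0.50, the middle 13 (13.1 to 30.1 kb) -0.49, -0.31 and -0.25, and the longest 13 (30.5 to 276 kb) -0.33, -0.14 and -0.22, in SNU2535, NCI-H3122 and NCI-H2228. WDR43 and POLR1C, at 53.6 and 52.7 kb, fell by as much as short members in SNU2535. Over all protein-coding genes tested the same correlation was 0.09, 0.15 and 0.12, and over the other pathway genes it was -0.03, 0.04 and 0.01. These values are descriptions across genes of shared libraries.

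**Figure D4:**
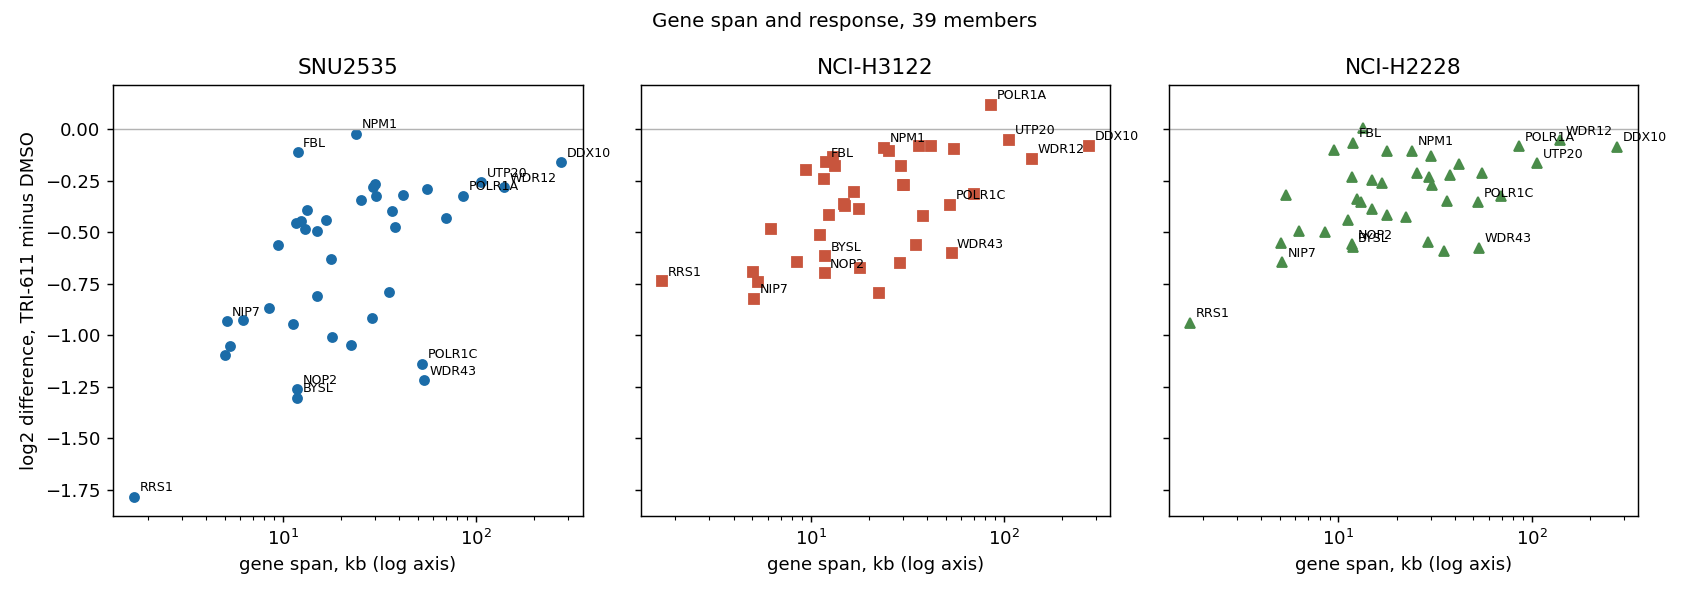
Gene span in kb (log axis) and log2 difference, TRI-611 minus DMSO, for the 39 members in each line. RRS1, the shortest at 1.71 kb, is lowest or among the lowest in each line, and DDX10, the longest at 276 kb, lies between -0.16 and -0.08. WDR12 at 140.0 kb is at -0.28 in SNU2535, and FBL, short at 12.0 kb, lies between -0.16 and -0.07.

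With DMSO alone, the lines differed in the levels of nearly all members. With DMSO, 30 members were highest in NCI-H3122, 7 in NCI-H2228 and 2 in SNU2535, and the median member stood at 69.8 TPM in SNU2535, 102 TPM in NCI-H3122 and 80.9 TPM in NCI-H2228. Most genes of any kind differ between these lines, so the shares of all genes are the measure to read the counts against. No such share was computed for the counts of members highest in each line. SNU2535 was lower than NCI-H3122 for 34 members and higher for 2, where 30.7% and 45.4% of 18233 tested genes were called in those directions. SNU2535 was lower than NCI-H2228 for 27 and higher for 6, against 42.6% and 32.4%, and median-ratio scaling gave 24 lower and 12 higher, against 38.7% and 35.9%. NCI-H3122 was higher than NCI-H2228 for 29 and lower for 4, against 30.0% and 49.3%. NOP14 and PPAN were called in none of the 3 pairs.

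The median difference over members was -0.77, -0.41 and 0.37 for these 3 pairs, while the median over all tested genes was 0.16, -0.11 and -0.25. Median-ratio scaling, which brings the median of all genes to 0.01, -0.03 and -0.01, gave member medians of -0.97, -0.31 and 0.68. The 3 pairs share their libraries and are not independent.

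The widest differences lay among small subunit factors. RRP9 had 40.1, 43.4 and 42.9 TPM in SNU2535, against 181, 179 and 177 TPM in NCI-H3122 (log2 difference -2.06, SE 0.034, adjusted p = 3.07e-11). NOL6, a processome scaffold protein, had 35.3, 37.3 and 38.0 TPM in SNU2535, against 141, 141 and 145 TPM in NCI-H3122 (-1.92, SE 0.037, adjusted p = 8.04e-11). No library of SNU2535 reached the level of NCI-H3122 for either gene.

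UTP20 had 8.91, 8.52 and 10.1 TPM in SNU2535, against 23.3, 24.8 and 25.8 TPM in NCI-H2228 (-1.34, SE 0.065, adjusted p = 5.45e-08). RRP12, an export and maturation factor, had 16.6, 17.2 and 18.2 TPM in SNU2535, against 43.4, 41.8 and 42.5 TPM in NCI-H2228 (-1.25, SE 0.043, adjusted p = 4.57e-09). Again the libraries of the 2 lines were far apart. WDR43 had 329, 315 and 299.8 TPM in NCI-H3122, against 90.04, 87.6 and 92.1 TPM in NCI-H2228 (1.79, SE 0.039, adjusted p = 1.27e-10), and its level in SNU2535 was not called different from that in NCI-H2228 (0.06, SE 0.039, adjusted p = 0.22), though it was called at 0.16 under median-ratio scaling and at 0.12 under quantile normalization. NOB1 went the other way, with 94.0, 91.1 and 90.4 TPM in NCI-H3122, against 260.3, 250.1 and 260.3 TPM in NCI-H2228 (-1.47, SE 0.034, adjusted p = 1.86e-10).

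The order of levels among members was led by the same gene in each line. NPM1 was highest, at 985 ± 12.5 TPM in SNU2535, 1432 ± 44.0 TPM in NCI-H3122 and 1451 ± 25.7 TPM in NCI-H2228 with DMSO (SD, n = 3 each). NPM1 was lower in SNU2535 than in NCI-H3122 (-0.54, SE 0.026, adjusted p = 4.77e-08) and NCI-H2228 (-0.56, SE 0.026, adjusted p = 4.30e-08), and was not called different between NCI-H3122 and NCI-H2228 (-0.02, SE 0.026, adjusted p = 0.513), a value whose sign and call rest on the scaling. It was 0.28 under median-ratio scaling and -0.32 under quantile normalization, called in both. NCL was -1.04 in SNU2535 against NCI-H3122, FBL was -0.79 and POLR1B -1.39, all called. The lowest member with DMSO was WDR12 in SNU2535 (8.31 TPM) and NCI-H2228 (17.8 TPM), and DDX10 in NCI-H3122 (17.8 TPM).

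**Figure D5:**
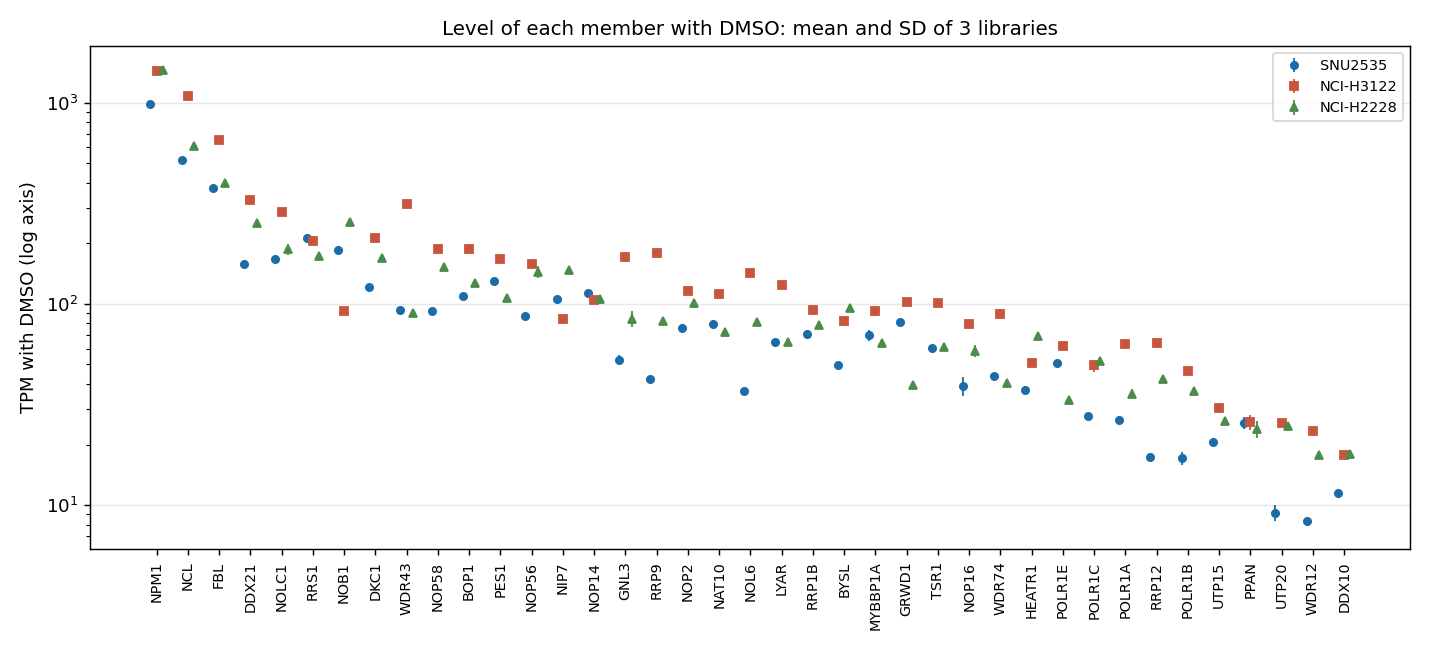
TPM with DMSO (log axis) of the 39 members in the 3 lines, as mean and SD of 3 libraries, ordered by the mean over lines. NPM1, NCL and FBL lead, and NCI-H3122 is highest for 30 of 39 members (share of all genes not computed), while NOB1 is lowest there.

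A total of 9 members carry snoRNA genes inside their span, which poly-A libraries are not made to measure, and several overlap a neighbouring gene. HEATR1 shares 23.2% of its exon bases with LGALS8, TSR1 shares 20.7% with SRR and NOB1 shares 20.2% with AC092115.3, all on the opposite strand. NOP16 shares 7.93% with HIGD2A, which averaged 259 TPM over all libraries, against 47.3 TPM for NOP16. POLR1C shares 2.32% with YIPF3 and 6.27% with XPO5, at 94.8 and 31.8 TPM, against 36.7 TPM for POLR1C, again on opposite strands. Reads of such pairs cannot be told apart without the strand setting, and the values of these 5 members, the falls of NOP16 and POLR1C included, are uncertain to that extent. Other members have opposite-strand overlaps too, among them NOP14 with NOP14-AS1 (17.1%). RRS1 shares 11.4% of its exon bases with AC009879.2 on the same strand, so its level may depend on how shared reads were assigned. The deposited values hold no level for AC009879.2, nor for AC006064.6, which overlaps NOP2.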

How the data were processed

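Poly-A RNA libraries of 3 lines were analysed, 18 in all. The authors deposited 1 table of TPM values, which sum to 1000000 per library. Per the submitters' processing notes, DESeq2, featureCounts, Subread 1.5.2, STAR 2.5.2b and fastp 0.23.1 were used with the build GRCh38, and, per the labels' protocols, the library kit adds unique molecular identifiers. Not given in the sources used here are the annotation, the strand setting, the use of the identifiers and how TPM was computed. TPM holds no read totals, so depth is unknown and no interval for counting error can be given.

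TPM was used as deposited, as log2(TPM + 1). Within each line, limma 3.58.1 (R 4.3.3; eBayes with trend = TRUE and robust = TRUE) tested genes with 1 TPM or more in at least 3 of 6 libraries, two-sided, with Benjamini-Hochberg adjustment over all tested genes and a call under 0.05. Differences in response were interaction contrasts over the 12 libraries of 2 lines, for genes that passed in both. DMSO levels were compared in 1 fit over 9 libraries. The fits were tested on simulated data. IDs were matched to GENCODE release 29 for 56898 of 57500 genes.

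The members, the roles, the other pathway genes and the markers were chosen with earlier results of these data known. Of 123 other pathway genes, EMG1 had no match. Values per library are given for the 4 largest called changes per line, the 2 largest called differences in response and in DMSO level per pair, and NPM1, NCL, FBL, POLR1A and POLR1B. UTP20, called in no line, was also given per library in SNU2535. Promoters printed are those of members among the 4 largest called changes of a line that have a window with CACGTG, and 1 such member without it, off chromosome 8.

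The labels' batch equals the replicate number in each group, which pairs the samples. Deviations from group means of same-numbered libraries correlated weakly across genes, with r for batches 1, 2 and 3 of -0.0228, 0.0437 and 0.00966 (SNU2535), of -0.0865, -0.0290 and 0.0152 (NCI-H3122) and of 0.101, 0.00343 and 0.0830 (NCI-H2228). A fit with the replicate block was an alternative. Whether the 3 libraries of each group are separate cultures is not stated in the labels, and the p-values then reflect the spread between these samples alone, possibly a technical one.

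Other alternatives were pseudocounts of 0.1 and 5, no filter and a filter at 5 TPM, median-ratio scaling, quantile normalization, removal of mitochondrially encoded genes, 1 fit over the 18 libraries, plain empirical Bayes, and leaving out each library. The main results use every library.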

Additional observations from a re-analysis of the deposited data

Results flagged for a closer look

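A difference in response between 2 lines, tested on the difference itself with limma at an adjusted p under 0.05, picked out 45 results: 19 for SNU2535 against NCI-H3122, 19 for SNU2535 against NCI-H2228 and 7 for NCI-H3122 against NCI-H2228. The 2 SNU2535 comparisons share its libraries. Groups of 3 libraries are too small for a search for single deviating samples. All values are differences of log2 changes, the first line minus the second.

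Relative to NCI-H3122, the response was lower in SNU2535 by these log2 differences: RRS1 -1.04, POLR1C -0.77, BYSL -0.69, WDR43 -0.62, NOP2 -0.56, DKC1 -0.45 and NOP56 -0.44. Next in size were POLR1A -0.44, GRWD1 -0.43, NOP16 -0.40, WDR74 -0.37, NOB1 -0.35 and UTP15 -0.34, and the smallest were RRP1B -0.31, DDX21 -0.26, NOP14 -0.24, POLR1E -0.24, NAT10 -0.24 and NOLC1 -0.21. Relative to NCI-H2228, the response was lower in SNU2535 as follows: RRS1 -0.84, POLR1C -0.78, PPAN -0.73, BYSL -0.73, NOP2 -0.70, WDR43 -0.64 and LYAR -0.62. Next in size were UTP15 -0.59, NOP16 -0.54, POLR1E -0.52, GRWD1 -0.50, WDR74 -0.46 and NOP56 -0.43, and the smallest were DKC1 -0.42, GNL3 -0.40, RRP9 -0.37, DDX21 -0.36, NIP7 -0.29 and TSR1 -0.25. 

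Between NCI-H3122 and NCI-H2228, the response was lower in NCI-H3122 for POLR1E -0.28, NIP7 -0.18, PPAN -0.42 and LYAR -0.37, and lower in NCI-H2228 for NOB1 0.22, RRS1 0.20 and RRP1B 0.27. Of the 45 calls, 12 of 19, 16 of 19 and 2 of 7 held in every alternative run for the 3 pairs.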

How the results depend on the processing

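Of called members, 33 of 36 in SNU2535, 26 of 29 in NCI-H3122 and 22 of 31 in NCI-H2228 were called in every alternative. The calls lost in some were FBL, HEATR1 and WDR12 in SNU2535, NOB1, BOP1 and GNL3 in NCI-H3122, and NOP58, NOLC1, HEATR1, NOP14, NAT10, BOP1, PPAN, NCL and NPM1 in NCI-H2228. Of uncalled members, 2 of 3 in SNU2535 (UTP20 and DDX10), 8 of 10 in NCI-H3122 and 0 of 8 in NCI-H2228 were called lower in some, and median-ratio scaling called 37 lower in NCI-H3122. No alternative called a member higher. Depth is unknown, so the reads behind low members such as WDR12 and UTP20 cannot be given. The cause of the moves listed next was not tested.

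Without 1 library, members lower numbered 34 to 36 (median -0.5096 to -0.4718), 26 to 29 (-0.3736 to -0.3134) and 24 to 27 (-0.339 to -0.2652) in SNU2535, NCI-H3122 and NCI-H2228. In these fits, 14.5% to 16.6%, 10.5% to 13% and 4.21% to 5.05% of all tested genes were lower, in the same order of lines. The median over members moved to -0.4222 under quantile normalization in SNU2535, -0.4341 under median-ratio scaling in NCI-H3122 and -0.2692 with a pseudocount of 5 in NCI-H2228.

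For SNU2535 minus NCI-H3122 responses, leaving out 1 library gave 15 to 22 lower (median -0.2724 to -0.1974), against 12.1% to 17.1% of all tested genes. Median-ratio scaling gave 12 lower, 1 higher and -0.1033, and the median was -0.2454 and -0.2039 with pseudocounts of 0.1 and 5, -0.2206 under quantile normalization and -0.2522 without mitochondrially encoded genes. For SNU2535 minus NCI-H2228, the ranges were 16 to 21 and -0.282 to -0.2154, with medians of -0.1867 under median-ratio scaling and -0.1870 under quantile normalization. Of all tested genes, 5.38% to 10.1% were lower there without 1 library. For NCI-H3122 minus NCI-H2228, the ranges were 1 to 5 lower, 2 to 3 higher and -0.05796 to -0.01411. Of all tested genes, 4.03% to 5.51% were lower and 6.67% to 8.93% higher in these fits. In that pair, 1 was lower with no filter (2.31% of all tested genes), with the replicate block (4.94%) and with plain empirical Bayes (4.82%). Median-ratio scaling gave 9 lower, 1 higher and -0.107, against 8.78% and 6.91% of all tested genes. The block changed no other count by over 1.5 times.

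With DMSO, SNU2535 minus NCI-H3122 had 34 lower, 2 to 3 higher and medians of -0.7995 to -0.7471 without 1 library, -0.9731 under median-ratio scaling and -0.8594 under quantile normalization. SNU2535 minus NCI-H2228 had 26 to 27 lower, 5 to 7 higher and -0.4527 to -0.3714, with 12 higher and -0.3134 under median-ratio scaling and -0.3287 under quantile normalization. NCI-H3122 minus NCI-H2228 had 4 to 5 lower, 28 to 29 higher and 0.345 to 0.4101, with 0.6759 and 0.6886 under these scalings. Without 1 library, 28% to 32.2% of all tested genes were lower and 42.7% to 46.9% higher for SNU2535 minus NCI-H3122. The shares were 38.7% to 43.4% and 29.5% to 33.5% for SNU2535 minus NCI-H2228. For NCI-H3122 minus NCI-H2228 they were 45.6% to 50.3% and 27.6% to 31.2%.

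Signs turned for small values. NPM1 in SNU2535 was at 0.004429 and GNL3 in NCI-H2228 at -0.005904 under median-ratio scaling. Without 1 library, GNL3 in NCI-H2228 ranged from -0.03561 to 0.0761, below 0 without DMSO replicate 1, DMSO replicate 2 (-0.02685) or TRI-611 replicate 1 (-0.008163). FBL in NCI-H2228 was at 0.00752 under quantile normalization. For DMSO levels, FBL turned to 0.01925 (SNU2535 minus NCI-H2228) and NPM1 to 0.2831 (NCI-H3122 minus NCI-H2228) under median-ratio scaling, and NPM1 to 0.01398 without mitochondrially encoded genes, while quantile normalization gave NPM1 -0.323, called. WDR43 (SNU2535 minus NCI-H2228) was called under both scalings, at 0.1569 and 0.1249.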
